A study of Mus musculus with 16 samples.

Results

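The genome-wide test described here asked whether deletion of Nr4a1 changed gene expression in adipose progenitors by the same amount in 2 fat depots. Its measure is an interaction: the knockout effect in visceral adipose tissue (VAT) minus the knockout effect in subcutaneous adipose tissue (SAT), each effect being the knockout level minus the wild-type level on the log2 scale. A positive interaction means that the knockout effect was more positive in VAT, and a negative one that it was more negative in VAT. All 16842 genes that passed a filter on low counts, of 38720 gene entries, were tested over 16 libraries, and no gene was chosen by its values.

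Each library was bulk RNA-seq of adipose progenitors, the fat-resident cells that give rise to new adipocytes, from mice at 4 weeks of age. There were 4 libraries in each of 4 groups. WT SAT and WT VAT came from wild-type (Nr4a1+/+) mice labelled C57BL/6J, from the subcutaneous and the visceral depot. KO SAT and KO VAT came from Nr4a1-/- mice carrying the genotype label B6;129S2-Nr4a1tm1Jmi/J, from the same depots. Sex, agents and diets are not given in the labels, and the isolation of the cells is described only by the tag MACS in the library names. The allele is a germline mutation carried by all cells of the animal, so effects that arise in progenitors and effects that reach them from other tissues cannot be told apart. The stock name includes 129S2 and the wild type is labelled C57BL/6J, so the deletion and the genetic background cannot be told apart either. The series' design text calls the libraries of a group biological replicates. The labels do not say whether SAT and VAT libraries of the same number came from one mouse, and the p-values measure the spread between these libraries.

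Nr4a1 (also Nur77) encodes an orphan nuclear receptor that is induced rapidly by growth factors, hormones and stress, and binds a DNA element called the NBRE. Its relatives Nr4a2 and Nr4a3 bind the same element. White fat in SAT and VAT differs in developmental origin, and progenitors of both depots can either divide or commit to become lipid-storing adipocytes. A committed cell switches on enzymes of triglyceride synthesis and proteins of the lipid droplet.

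Library totals ranged from 34655519 to 55551845 counts. The progenitor markers were present in every library: the summed level of 16 tested markers, Pdgfra, Ly6a and Dcn among them, was 54716 to 62650.2 CPM (counts scaled to a common library size) in WT SAT and 60038 to 70400.2 CPM in KO SAT. The VAT groups held 23671 to 27268 CPM (wild type) and 24177 to 26782 CPM (knockout). Most of the SAT sum and of the gap between depots was Col1a1, at 35609 to 50953 CPM in SAT and 8319 to 13383 CPM in VAT. Dcn was at 7502 to 11963 CPM in SAT and 7429 to 9962 CPM in VAT. Mesothelial markers also differed by depot: the summed level of 18 was 68.4 to 90.7 CPM in WT SAT and 51.6 to 68.5 CPM in KO SAT. It was 1201 to 2219 CPM in WT VAT and 1188 to 2205 CPM in KO VAT. The part of mesothelial cells in the interaction was not tested. KO VAT replicate 4 stood apart in some markers of smooth muscle (Cnn1 at 151 CPM against 50.2 to 58.6 in the rest of its group, Actg2 at 107 against 20.98 to 33.1). The same held for Acta1 of skeletal muscle (23.5 against 0.670 to 3.97) and Epcam of epithelium (14.5 against 1.87 to 5.54). Several further markers of these cells were also highest there, among them Acta2 (2123 CPM against 1466 to 1759) and Myh11 (1657 against 1056 to 1530). Epithelial Cdh1 was at 6.31 CPM against 0.751 to 1.63, and Cldn4 at 8.07 against 0 to 2.51. Some markers of these cells did not stand above the group. Rgs5 was at 602 CPM against 831 to 967, and Notch3 at 301 against 379 to 489. Myh1 was at 1.99 CPM against 1.87 to 2.57, and Krt8 at 38.2 against 20.1 to 42.7. Nr4a1 itself (chr15:101254269-101274795, mm10) was at 1212, 1121, 1018 and 997 CPM in WT SAT and at 202, 209, 195 and 199 CPM in KO SAT. In VAT the wild-type libraries held 1649, 1432, 1481 and 1581 CPM and the knockout libraries 297, 327, 304 and 307 CPM. The drop was therefore present in all 8 knockout libraries and similar in size, -2.43 in SAT and -2.31 in VAT on the log2 scale, with an interaction of 0.12 ± 0.10 (standard error, SE) and a 95% interval of -0.10 to 0.34 (adjusted p = 0.59). The counts cover the whole gene, and the reads that remained in the knockout do not show which part of it is deleted.

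Nr4a2 and Nr4a3 were followed as the closest relatives. Nr4a2 was at 126 to 157 CPM in wild-type VAT and 178 to 216 CPM in knockout VAT, groups that did not overlap, while the SAT groups overlapped. Its knockout effect in VAT was called (0.47, adjusted p = 0.0350). Its interaction of 0.59 ± 0.17 did not pass the test in edgeR (adjusted p = 0.119) or limma-voom (0.139) and passed in DESeq2 (0.0356). That of Nr4a3 was 0.37 ± 0.25 (adjusted p = 0.461), with overlapping groups in both depots.

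The knockout effect on expression differed between the 2 depots for 45 genes, at an adjusted p below 0.05 in edgeR's quasi-likelihood test over all tested genes. They made up 0.267% of the genes tested. The knockout effect was more positive in VAT for 22 genes (0.131%) and more negative in VAT for 23 (0.137%). The first set held 7 genes of a lipid storage list, all higher in KO VAT, and the second held 4 genes of an interferon list, all higher in KO SAT. At an unadjusted p below 0.05 there were 1322 genes with a positive and 1370 with a negative interaction, 2692 in all or 16.0% of those tested. All 45 genes are protein-coding, and 9 of them had a mean below 5 CPM.

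Within a depot the knockout effects were more widely called than their difference. In SAT 992 genes (5.89%) were called, 582 higher and 410 lower in the knockout. In VAT 690 genes (4.1%) were called, 478 higher and 212 lower. Both depots called 270 genes, of which 267 changed in the same direction (199 higher and 68 lower) and 3 in opposite directions. Of the 722 genes called in SAT and not in VAT, 23 were called in the interaction, and of the 420 called in VAT and not in SAT, 19 were. For the others a depot difference was not shown. The interaction carried the error of all 4 groups, with a median SE of 0.198 against 0.140 for the SAT effect and 0.139 for the VAT effect. Its 95% interval lay wholly within a 2-fold difference in either direction for 11256 genes (66.8%), and within a 1.5-fold difference for 7043 genes (41.8%).

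The 45 genes fell into 6 patterns. Most of the negative interactions came from genes that were higher in KO SAT and not called in VAT, 20 genes in all. Most of the positive ones came from genes that were higher in KO VAT and not called in SAT, 17 genes. Another 3 (Cmbl, Gmpr and Wnt4) were lower in KO SAT alone and 2 (Ankrd46 and Gabra2) lower in KO VAT alone. Opposite calls in the depots were found for Rgcc, Atad3a and Aftph. The CPM values of wild type and knockout did not overlap in SAT for 30 of the 45 genes and in VAT for 26. They did not overlap in either depot for 11 genes, and no gene overlapped in both. The 45 genes were picked by a test on these same values, so this separation adds no support. Its share over all tested genes was not counted.

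**Figure D1:**
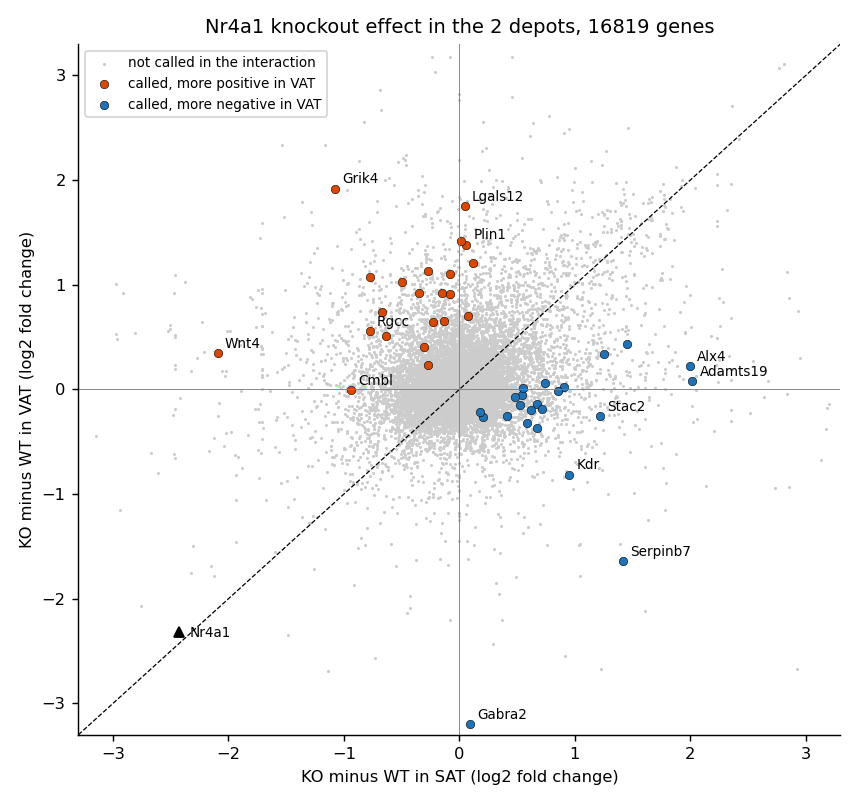
Knockout effect in SAT (x axis) against VAT (y axis), both as log2 fold changes, for 16755 genes within the axes (grey), with the 22 genes called more positive in VAT (orange) and the 23 called more negative in VAT (blue); 64 uncalled genes beyond the axes and 23 tested genes whose names were turned into dates are not drawn, and Gabra2 sits on the lower edge. The dashed line marks equal effects: the triangle of Nr4a1 lies near it, the orange points lie above it and the blue points below it, with Wnt4 lowest in SAT among the orange (-2.09) and Serpinb7 at -1.64 in VAT among the blue.

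The first group of interest was triglyceride storage. Of 43 tested genes on a list of adipocyte lipid and adipokine genes, 18 were higher in KO VAT and none lower, against 478 and 212 of all 16842. In SAT none was higher (2 at an unadjusted p below 0.05, none by DESeq2 or limma-voom) and 3 were lower. In the interaction 7 were called, all positive (Lgals12, Pnpla3, Plin1, Fabp5, Agpat2, Acsl1 and Dgat2), against 17 by DESeq2 and 6 by limma-voom, also all positive. The median over the list was 0.62 against 0.03 over all tested genes. At an unadjusted p below 0.05, 23 of the 43 had a positive interaction (53.5%, against 7.85% of all tested genes) and none a negative one. The number of members called ranged from 1 without KO SAT replicate 4 to 15 without KO VAT replicate 3, and was more than 1.5 times lower in 11 of the 16 fits that each left out 1 library.

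Lgals12 (chr19:7596660-7607193) encodes galectin-12, a lectin of the adipocyte lipid droplet. It was at 4.38, 4.03, 3.46 and 3.17 CPM in WT VAT and 12.4, 16.2, 8.83 and 13.1 CPM in KO VAT. The SAT libraries held 6.62, 4.62, 4.31 and 6.72 CPM in wild type and 5.04, 6.01, 5.70 and 6.34 CPM in knockout. All 4 KO VAT libraries thus stood above all others, while the SAT groups overlapped. Its interaction was 1.70 ± 0.26 (95% interval 1.16 to 2.25, adjusted p = 0.0141), and it was called under all 26 alternative settings.

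Plin1 (chr7:79720218-79732903), whose product perilipin-1 coats the lipid droplet and gates lipolysis, showed the same arrangement at a higher level. WT VAT libraries held 41.2, 33.8, 32.96 and 35.7 CPM and KO VAT libraries 87.3, 121, 72.2 and 93.7 CPM. WT SAT was at 57.3, 42.7, 31.9 and 38.5 CPM and KO SAT at 42.6, 37.5, 46.01 and 51.7 CPM, so that the knockout range lay inside the wild-type range. The interaction was 1.32 ± 0.24 (adjusted p = 0.0292). KO VAT replicate 2 was the highest library for both Lgals12 and Plin1, and KO VAT replicate 3 the lowest of its group.

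Enzymes that activate fatty acids and build triglyceride moved with these droplet proteins. Acsl1, the long-chain acyl-CoA synthetase, was at 39.99 to 42.8 CPM in wild-type VAT and 81.5 to 116 CPM in knockout VAT, with SAT values of 22.8 to 40.3 CPM in wild type and 28.7 to 38.2 CPM in knockout (interaction 1.08 ± 0.21, adjusted p = 0.0407). Agpat2, which makes phosphatidic acid, had VAT ranges of 17.3 to 21.3 and 25.5 to 33.3 CPM and an interaction of 0.87 ± 0.16. Dgat2 catalyses the last step of triglyceride synthesis. It ranged from 14.7 to 18.4 CPM in WT VAT and from 21.4 to 40.5 CPM in KO VAT, with the lowest knockout library above the highest wild-type one, and its interaction was 1.27 ± 0.25. The fatty acid carrier Fabp5 rose from 24.7 ± 3.15 (SD, n = 4) to 53.1 ± 9.29 CPM in VAT, and was at 13.3 ± 2.88 and 12.5 ± 1.51 CPM in WT and KO SAT. Pnpla3, a lipid droplet hydrolase, was below 5 CPM in 12 of the 16 libraries and at 9.70, 10.8, 7.85 and 9.01 CPM in KO VAT (interaction 1.40 ± 0.22). In each of these 5 genes the VAT groups did not overlap and the SAT groups did.

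Called genes outside the list included other metabolic enzymes with the same pattern. Pcx, pyruvate carboxylase, was at 20.6, 17.6, 19.9 and 21.2 CPM in WT VAT and 35.5, 46.2, 28.7 and 39.2 CPM in KO VAT, against overlapping SAT ranges of 16.8 to 22.4 and 15.1 to 20.2 CPM (interaction 1.06 ± 0.19, adjusted p = 0.0292). Slc25a10, the mitochondrial dicarboxylate carrier, had an interaction of 0.99 ± 0.19 (adjusted p = 0.0410). The muscle-type glycogen synthase Gys1 had one of 0.63 ± 0.13 (adjusted p = 0.0457). Both calls were lost by limma-voom. The Slc25a10 call was also lost in 14 of the 16 fits without 1 library, and the Gys1 call in 15. Ppp1r1a (chr15:103530279-103538003), an inhibitor subunit of protein phosphatase 1, was at 4.29, 3.72, 3.999 and 5.17 CPM in WT VAT and 8.67, 9.59, 6.32 and 10.51 CPM in KO VAT. In SAT it ranged from 4.54 to 6.84 CPM in wild type and from 3.19 to 4.65 CPM in knockout, and its interaction of 1.52 ± 0.24 was called under all 26 alternatives. Reep6, a protein that shapes the endoplasmic reticulum, was at 14.5 to 19.9 CPM in wild-type VAT and 35.2 to 53.05 CPM in knockout VAT (interaction 1.41 ± 0.25), with KO SAT replicate 2 at 14.9 CPM below the other KO SAT libraries at 28.0 to 29.2.

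**Figure D2:**
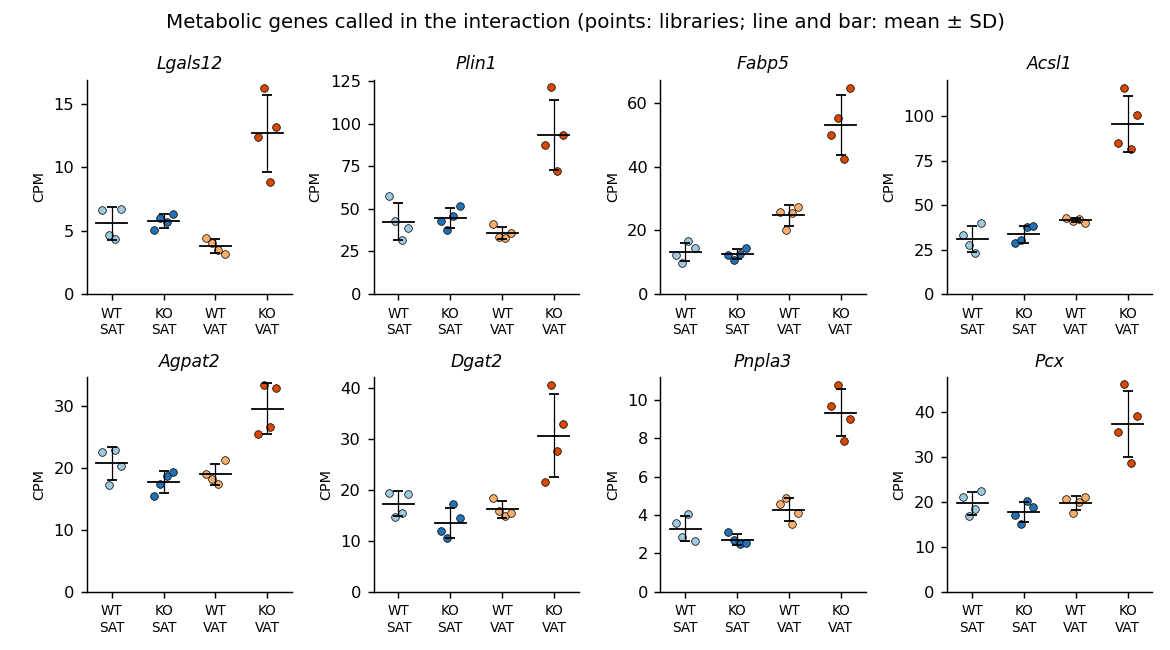
Level of 8 metabolic genes called in the interaction (y axis, CPM; one point a library, line and bar the mean ± SD of 4 libraries) in WT SAT, KO SAT, WT VAT and KO VAT. In every panel the KO VAT points lie above the WT VAT points, as for Lgals12 at 8.83 to 16.2 against 3.17 to 4.38 CPM, and the SAT groups overlap.

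Other members of the lipid list had interactions of similar size that did not pass the test in edgeR, and these were chosen after their values were seen. Adipoq, the gene of the adipocyte hormone adiponectin, was at 18.5, 15.7, 19.1 and 22.5 CPM in WT VAT and 48.4, 65.9, 36.7 and 63.04 CPM in KO VAT, and overlapped in SAT (interaction 1.57 ± 0.34, adjusted p = 0.0626). The beta-3 adrenergic receptor gene Adrb3 had an interaction of 1.63 ± 0.35 (adjusted p = 0.0626), and the glycerol-3-phosphate dehydrogenase gene Gpd1 one of 1.57 ± 0.36 (adjusted p = 0.0705). Fabp4, the major fatty acid carrier of adipocytes, was at 1168 ± 273 CPM in WT SAT against 854 ± 182 CPM in KO SAT, and at 926 ± 85.6 and 983 ± 159 CPM in the wild type and knockout of VAT, with an interaction of 0.54 ± 0.24 (adjusted p = 0.284). Among 31 transcription factors of adipogenesis none was called by edgeR or limma-voom, and DESeq2 called 5. At an unadjusted p below 0.05, 8 had a positive and 1 a negative interaction (25.8% and 3.23%, against 7.85% and 8.13% of all tested genes). Pparg, the master regulator of adipocyte formation, had an interaction of 0.62 ± 0.17 (adjusted p = 0.116), and Cebpa one of 0.71 ± 0.18 (adjusted p = 0.0925).

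All 16 genes used as markers of mature adipocytes are also on the lipid list. Their summed level was 858 to 1025 CPM in wild-type and 779.7 to 1079.5 CPM in knockout SAT. Wild-type VAT held 835 to 866 CPM, knockout VAT held 1161 to 1966 CPM, and none was at 0 in any group. Most of the rise in VAT was Car3, at 343 to 387 CPM in wild type and 654 to 1152 CPM in knockout. Cd36 was at 295 to 332 and 225 to 380 CPM in the same groups. Of the 16 markers 10 were called higher in KO VAT and 0 lower. In these bulk samples more adipocyte-type cells and more adipocyte RNA per cell cannot be told apart.

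The second group was the interferon response. Interferons switch on a shared set of antiviral genes through transcription factors that include Stat2 and Irf9. Of 34 tested genes on the interferon list, 21 were higher in KO SAT and none lower, against 5.89% of all tested genes called in SAT. In VAT none was called by edgeR, with 4 higher and 3 lower at an unadjusted p below 0.05. DESeq2 called 1 higher and 1 lower there, and limma-voom 1 lower. In the interaction 4 were called, all negative (Ifit2, Ifih1, Trim30a and Parp14), against 12 by DESeq2 and 4 by limma-voom, also all negative. The median was -0.66, and 31 of the 34 estimates were below 0, against 7776 of all 16842. At an unadjusted p below 0.05, 23 members had a negative interaction, 67.6% against 8.13% of all tested genes, and none a positive one. The count of 4 became 1 without KO SAT replicate 4 or without WT SAT replicate 1, 2 without KO VAT replicate 2, 7 without WT VAT replicate 2 and 8 without KO VAT replicate 3.

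Ifit2 (chr19:34550694-34576419), which encodes a protein that restrains viral RNA translation, was at 40.3, 49.3, 35.4 and 36.9 CPM in WT SAT and 57.2, 64.5, 60.2 and 61.9 CPM in KO SAT. The order was opposite in VAT, with 40.2, 38.9, 38.1 and 37.4 CPM in wild type and 30.6, 30.8, 34.2 and 28.2 CPM in knockout. Neither pair of groups overlapped, although the VAT effect of -0.32 did not itself pass the test (adjusted p = 0.0559). The interaction was -0.91 ± 0.13 (95% interval -1.18 to -0.64, adjusted p = 0.0135) and was called under all 26 alternatives.

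Ifih1 encodes MDA5, a cytoplasmic sensor of double-stranded RNA. It was at 42.1, 49.4, 39.1 and 35.1 CPM in WT SAT and at 60.7, 67.4, 61.1 and 65.9 CPM in KO SAT. WT VAT held 37.6, 32.5, 35.02 and 37.9 CPM, and KO VAT held 29.3, 31.01, 35.1 and 29.1 CPM. Every KO SAT library lay above every other library, and the VAT groups overlapped (interaction -0.82 ± 0.13, adjusted p = 0.0202). Parp14, an ADP-ribosyltransferase, ranged from 53.1 to 68.2 CPM in WT SAT and from 81.6 to 86.2 CPM in KO SAT, with an interaction of -0.68 ± 0.13. Trim30a, a tripartite-motif protein of the innate immune response, was at 46.6, 57.2, 49.3 and 38.8 CPM in WT SAT and 78.8, 75.3, 66.97 and 84.7 CPM in KO SAT (interaction -1.04 ± 0.17). It belongs to a cluster of similar genes, and its counts are uncertain to the extent that reads were shared among them.

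Of the called genes outside the list, 5 more are known to be induced by interferon or to sense viral RNA, a grouping made after the calls were seen. Samd9l, Herc6, Irgm2, Sp100 and Tlr3 were each higher in KO SAT, with SAT groups that did not overlap and VAT groups that did. Tlr3, the endosomal receptor for double-stranded RNA, was at 18.5, 20.2, 17.8 and 18.4 CPM in WT SAT and 26.4, 28.04, 27.8 and 27.5 CPM in KO SAT, while VAT held 17.4 to 19.8 CPM in wild type and 16.3 to 20.3 CPM in knockout. Its interaction was -0.54 ± 0.11 (adjusted p = 0.0426). The interactions of the other members were -0.91 ± 0.17 for Samd9l, -0.81 ± 0.16 for Herc6, -0.60 ± 0.12 for Irgm2 and -0.55 ± 0.10 for Sp100.

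Members that transmit the interferon signal did not pass the interaction test in edgeR. Stat2 was at 77.8 ± 8.92 CPM in WT SAT and 116 ± 2.44 in KO SAT, and at 45.1 ± 3.38 and 51.6 ± 1.63 CPM in WT and KO VAT, with an interaction of -0.38 ± 0.11 (adjusted p = 0.115). The interaction was -0.36 ± 0.11 for Irf9, its DNA-binding partner. Irf7, the factor that amplifies the response, was at 43.3 to 92.9 CPM in WT SAT and 110.0 to 135 in KO SAT (interaction -0.92 ± 0.29, adjusted p = 0.153). The summed level of 19 lymphocyte and plasma cell markers, 15 of them tested, was 22.9 to 26.2 CPM in wild-type and 34.0 to 56.1 CPM in knockout SAT. In VAT it was 32.5 to 89.2 CPM in wild type and 82.5 to 225 CPM in knockout. That of 23 macrophage and myeloid markers, 20 of them tested, was 51.5 to 81.8, 65.4 to 92.6, 92.1 to 133 and 103 to 154 CPM in the same order. None of the lymphocyte markers was at 0 in all libraries of a group, and 1 myeloid marker was at 0 in all WT SAT libraries. The part of these cells in the interferon result was not tested.

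The promoters of the interferon-related genes are shown because interferon acts through a short element, the ISRE. A core of it, TTTC repeated on the same strand with 2 bases between the copies, was looked for on both strands in RefSeq windows. These windows (GRCm38.p6, the assembly behind mm10) run from 250 bases before to 50 bases after a RefSeq start. Windows were found for 8 of the 9 interferon-related called genes, and 3 of them held the core (37.5%), against 432 of 11626 tested genes with a window (3.72%). Among the called genes with a positive interaction 0 of 13 with a window held it. The 9 genes were grouped by their known link to interferon, which acts through this element, so their higher share adds no support. The windows with a match, 5′ to 3′ on the gene's strand with the match in capitals, are those of Ifih1 (chr2:62646206-62646505, minus strand), Irgm2 (chr11:58214727-58215026, plus strand) and Trim30a (chr7:104465144-104465443, minus strand), the last being the first of 2 windows of this gene that both match.
Ifih1: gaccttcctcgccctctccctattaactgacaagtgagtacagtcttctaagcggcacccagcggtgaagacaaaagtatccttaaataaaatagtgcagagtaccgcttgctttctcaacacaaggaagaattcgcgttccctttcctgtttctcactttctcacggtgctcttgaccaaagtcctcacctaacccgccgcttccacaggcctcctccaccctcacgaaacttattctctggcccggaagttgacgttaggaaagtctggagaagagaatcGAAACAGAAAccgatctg
Irgm2: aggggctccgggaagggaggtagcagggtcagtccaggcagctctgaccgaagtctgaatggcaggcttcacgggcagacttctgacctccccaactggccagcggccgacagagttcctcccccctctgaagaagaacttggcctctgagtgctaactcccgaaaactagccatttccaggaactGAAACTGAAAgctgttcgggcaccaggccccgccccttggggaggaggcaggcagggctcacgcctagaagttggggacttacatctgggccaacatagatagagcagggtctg
Trim30a: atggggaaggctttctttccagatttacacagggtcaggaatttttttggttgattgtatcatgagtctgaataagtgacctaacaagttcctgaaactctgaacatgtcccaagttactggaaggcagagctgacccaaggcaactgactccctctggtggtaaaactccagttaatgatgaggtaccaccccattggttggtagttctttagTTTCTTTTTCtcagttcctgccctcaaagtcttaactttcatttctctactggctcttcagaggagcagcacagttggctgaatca
The match lies near the RefSeq start of the window in each, from base 283 of the 300 in Ifih1, base 187 in Irgm2 and base 215 in Trim30a. The Irgm2 window lies inside the gene as annotated by GENCODE (chr11:58199618-58222782), away from its annotated start. Such a match describes the letters and is not a measured binding site.

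**Figure D3:**
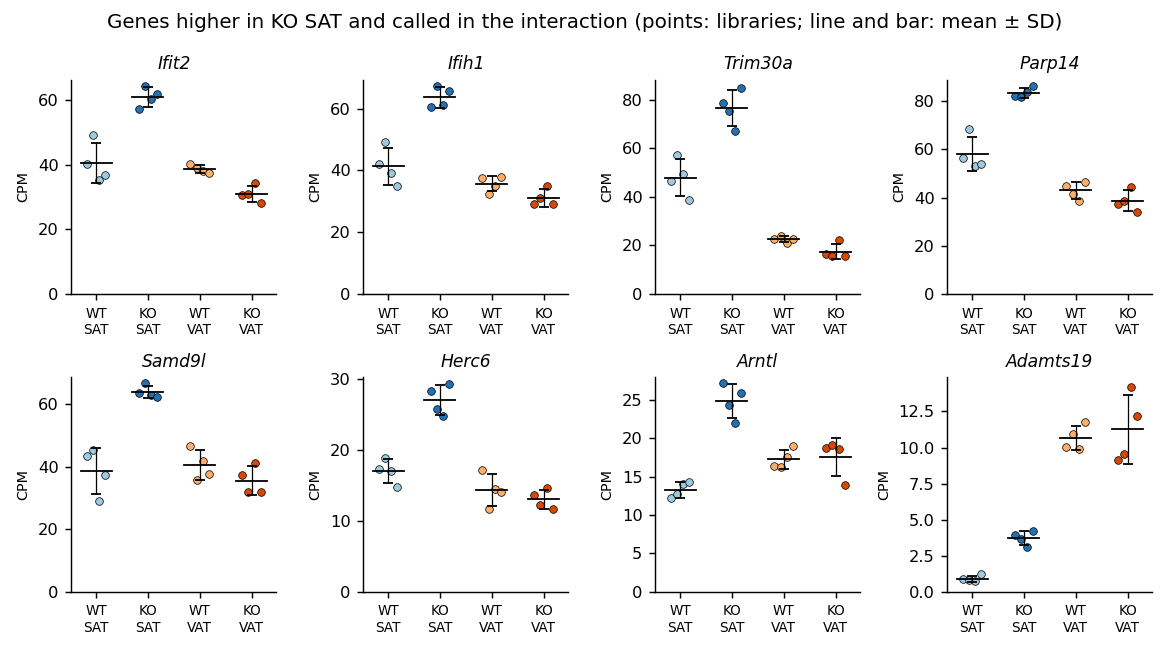
Level of 8 genes that were higher in KO SAT and called in the interaction (y axis, CPM; one point a library, line and bar the mean ± SD of 4 libraries) in the 4 groups. KO SAT lies above WT SAT in every panel, as for Ifit2 at 57.2 to 64.5 against 35.4 to 49.3 CPM, while the VAT groups overlap except for Ifit2.

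Among the other genes higher in KO SAT, Adamts19, a secreted metalloprotease, had the smallest p of the whole interaction. It was at 0.868, 0.842, 0.734 and 1.203 CPM in WT SAT and 3.96, 3.68, 3.08 and 4.20 CPM in KO SAT. In VAT it stood higher in both genotypes, at 10.02, 10.96, 9.92 and 11.7 CPM in wild type and 9.13, 9.54, 14.2 and 12.2 CPM in knockout, and these overlapped. The interaction was -1.94 ± 0.23 (adjusted p = 0.00434), called under all 26 alternatives. Several further genes shared this arrangement of a low WT SAT level and a higher level in the other groups. The homeobox gene Alx4, known for limb and skull patterning, was at 4.04, 4.37, 1.64 and 2.74 CPM in WT SAT and 17.4, 9.72, 13.7 and 10.7 CPM in KO SAT, against 8.19 to 11.8 CPM in wild-type and 8.44 to 11.9 CPM in knockout VAT (interaction -1.78 ± 0.34, adjusted p = 0.038). Matn2, an extracellular matrix adaptor protein, was at 39.8 to 48.8 CPM in WT SAT against 94.9 to 128 CPM in KO SAT, with 353 to 491 and 476 to 602 CPM in the VAT groups (interaction -0.92 ± 0.17). Stac2, an adaptor of calcium channels, was at 6.71, 6.66, 5.37 and 5.17 CPM in WT SAT and 15.8, 11.7, 14.5 and 13.8 CPM in KO SAT (interaction -1.48 ± 0.21), and was also called under all 26 alternatives.

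Arntl encodes BMAL1, a core activator of the circadian clock. It was at 12.2, 12.7, 14.1 and 14.3 CPM in WT SAT and 27.2, 24.3, 22.04 and 25.9 CPM in KO SAT, and in VAT at 16.3, 16.3, 17.5 and 18.98 CPM in wild type and 18.7, 19.1, 18.7 and 13.9 CPM in knockout. The interaction was -0.88 ± 0.15 (adjusted p = 0.0202) and was lost in 3 of the 16 fits without 1 library, KO SAT replicate 4 among them. It was the only one of 20 clock genes called by edgeR. Its partner gene Npas2 had an interaction of -0.60 ± 0.17 (adjusted p = 0.119). Dbp, a clock output gene, was lower in both knockout groups (-0.78 in SAT and -0.46 in VAT). The time of day of collection is not given in the labels.

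Growth factor and receptor genes were also present. Pdgfd, a ligand of the PDGF receptor beta, was at 76.4, 80.2, 70.7 and 74.7 CPM in WT SAT and 89.8, 103, 103 and 107 CPM in KO SAT, and at 40.98 to 48.5 and 32.03 to 42.3 CPM in WT and KO VAT (interaction -0.67 ± 0.12). Kdr, the VEGF receptor 2, was at 9.14, 9.45, 9.85 and 6.82 CPM in WT SAT and 10.6, 27.2, 13.5 and 16.9 CPM in KO SAT. In VAT it was at 39.8, 28.5, 39.2 and 38.7 CPM in wild type and 17.7, 18.3, 28.4 and 18.7 CPM in knockout. The groups were in opposite orders and did not overlap in either depot, although the VAT effect of -0.82 was not called (adjusted p = 0.0533). The interaction was -1.77 ± 0.33 (adjusted p = 0.0351), and its call was lost in 10 of the 16 fits without 1 library. Kdr was the only one of 17 tested endothelial markers called by edgeR or limma-voom, and DESeq2 called 3. The levels of these markers differed widely: in any library Pecam1 reached at most 2.23 CPM and Cdh5 at most 15.1 CPM, while Esam was at 34.4 to 109 CPM and Tek at 48.1 to 286 CPM. The part of endothelial cells in the Kdr result was not tested. Wnt4, a secreted signalling protein, was lower in KO SAT, with 75, 78, 102 and 95 counts in the WT SAT libraries and 25, 27, 15 and 26 in the KO SAT libraries. Its VAT levels were 5.69 to 8.81 CPM in wild type and 6.05 to 15.1 CPM in knockout, and the interaction was 2.44 ± 0.41 (adjusted p = 0.0226). Wnt4 was the only one of 38 Wnt pathway genes called by edgeR, while DESeq2 called 3 positive and 1 negative and limma-voom 0. The Wnt4 call was lost by limma-voom (adjusted p = 0.0910) and in 4 of the 16 fits without 1 library. Heph, a copper-dependent iron oxidase, had an interaction of -0.87 ± 0.14, with 18.1 to 26.3 CPM in WT SAT below the other 12 libraries at 35.2 to 44.1 CPM.

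Of the 3 genes with opposite calls in the depots, Rgcc changed most. Rgcc (chr14:79288756-79301645) encodes a regulator of the cell cycle. It was at 15.5, 11.2, 18.9 and 12.9 CPM in WT SAT and 7.83, 7.96, 9.26 and 8.999 CPM in KO SAT. VAT went the other way, from 20.01, 20.1, 20.8 and 20.3 CPM in wild type to 28.5, 36.7, 23.5 and 30.7 CPM in knockout, and neither pair of groups overlapped. The knockout effects were -0.78 in SAT and 0.56 in VAT, and the interaction of 1.33 ± 0.20 (adjusted p = 0.0141) was called under all 26 alternatives. Atad3a, a mitochondrial membrane ATPase, was at 31.8, 30.1, 32.9 and 32.1 CPM in WT SAT and 25.2, 26.4, 26.7 and 26.6 CPM in KO SAT, and at 31.4, 31.5, 29.04 and 29.2 CPM in WT VAT and 34.5, 37.03, 33.2 and 37.4 CPM in KO VAT (interaction 0.51 ± 0.09). Aftph, a vesicle trafficking protein, had the reverse order, with 38.2 to 42.3 and 45.2 to 47.04 CPM in WT and KO SAT and 39.2 to 42.7 and 32.7 to 36.7 CPM in WT and KO VAT (interaction -0.46 ± 0.08). The count of 3 ranged from 0 to 10 when 1 library was left out.

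A few of the called genes were near the detection limit in one group, and their fold changes depend on how low counts are handled. Gabra2, a GABA-A receptor subunit, had 9, 16, 6 and 9 counts in the WT VAT libraries and 0, 0, 1 and 0 in the KO VAT libraries, a wild-type to knockout ratio of 37.4 with a counting interval of 6.33 to 1512. In SAT it was at 1.49 to 2.24 CPM in wild type and 1.68 to 2.40 CPM in knockout. Grik4, a kainate receptor subunit, had 17, 21, 13 and 7 counts in WT VAT and 54, 63, 33 and 57 in KO VAT, against 8 to 13 in WT SAT and 3 to 9 in KO SAT. Serpinb7, a serine protease inhibitor, had 25 to 48 counts in WT SAT and 104 to 163 in KO SAT, and fewer in VAT (5 to 28 in wild type, 2 to 8 in knockout). Intervals on these counts cover counting error only.

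Cell division genes were higher in the knockout of both depots, with no depot difference called. All 36 tested genes of G2/M and mitosis passed the test in SAT, and all 36 in VAT, against 5.89% and 4.1% of all tested genes. None was called in the interaction by edgeR, DESeq2 or limma-voom. At an unadjusted p below 0.05 there were 2 positive and 2 negative (5.56% each, against 7.85% and 8.13% of all tested genes). The median knockout effect was 1.48 in SAT and 1.54 in VAT, and the median interaction 0.07. The 95% interval of the interaction lay within a 2-fold difference in either direction for 28 of the 36 and within a 1.5-fold difference for 5. Depot differences of a size inside these intervals remain possible with 4 libraries a group.

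Mki67, which encodes the proliferation antigen Ki-67, was at 7.26, 5.64, 7.04 and 9.01 CPM in WT SAT and 21.6, 25.2, 22.04 and 30.4 CPM in KO SAT. In VAT it was at 11.3, 9.30, 7.88 and 9.43 CPM in wild type and 33.9, 26.6, 34.3 and 38.9 CPM in knockout. The effects were 1.78 and 1.82, and the interaction 0.04 ± 0.22 had a 95% interval of -0.41 to 0.50. Ccna2, cyclin A2, had effects of 1.57 in SAT and 1.59 in VAT, with an interval of -0.39 to 0.43 for the interaction. For Tpx2, a spindle assembly factor, the effects were 1.48 and 1.47 and the interval -0.45 to 0.45. The mitotic kinase Cdk1 had the largest interaction of the 10 genes with the narrowest intervals among those changed more than 2-fold in both depots, 0.35 ± 0.19 (interval -0.05 to 0.76, adjusted p = 0.372). In each of these genes no knockout library overlapped a wild-type library of its depot. They were called in both depots by tests on these same values, so the separation adds no support. Its share over all tested genes was not counted.

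Of 37 tested genes of S phase and replication, 13 were higher in KO SAT and 26 in KO VAT, against 582 and 478 of all 16842. The interaction was called for none of them by edgeR or limma-voom and for 2 by DESeq2. At an unadjusted p below 0.05, 11 were positive (29.7%, against 7.85% of all tested genes) and none negative. Of the 37 estimates 34 were above 0, against 9066 of all 16842, with a median of 0.34. Tk1, thymidine kinase, was at 5.09, 4.49, 5.11 and 6.09 CPM in WT SAT and 7.76, 8.40, 7.42 and 8.06 in KO SAT, and at 6.40, 6.37, 6.67 and 6.85 in WT VAT and 13.6, 14.8, 13.3 and 16.8 in KO VAT (interaction 0.55 ± 0.14, adjusted p = 0.0983). Cdt1, a replication licensing factor, had an interaction of 0.83 ± 0.25 (adjusted p = 0.133). Gmnn, which encodes the Cdt1 inhibitor geminin, was called in the negative direction: it was at 0.936, 0.868, 0.801 and 0.920 CPM in WT SAT and 2.62, 2.41, 2.14 and 2.52 CPM in KO SAT, and at 2.24 to 3.15 and 3.21 to 3.68 CPM in WT and KO VAT (interaction -1.02 ± 0.21, adjusted p = 0.0491). That call was lost in 15 of the 16 fits without 1 library.

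**Figure D4:**
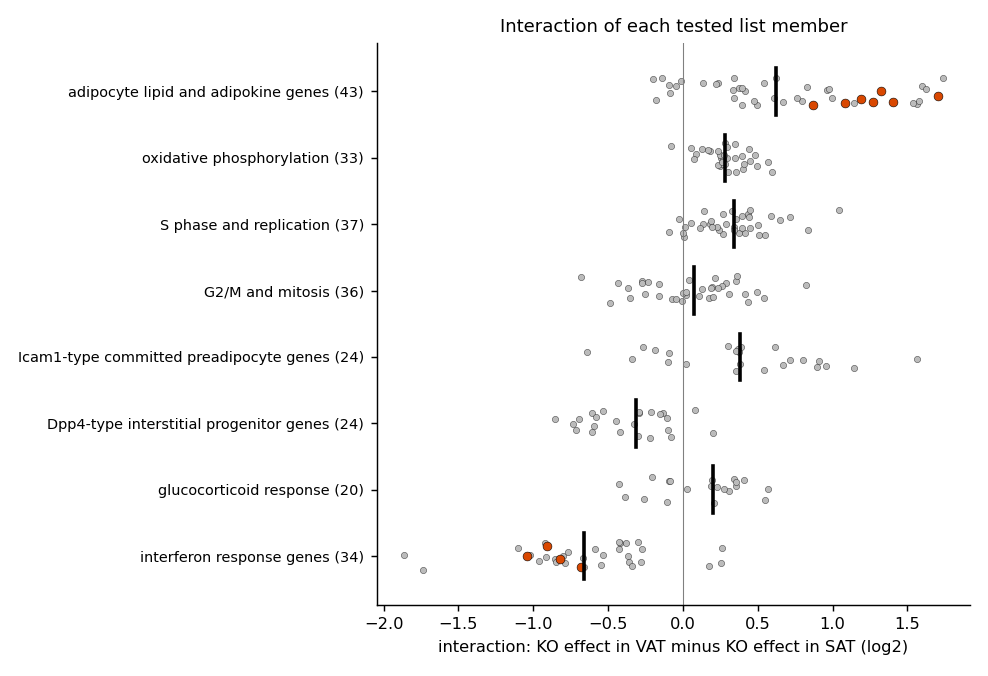
Interaction (x axis, knockout effect in VAT minus SAT, log2) of each tested member of 8 gene lists, with the number tested in brackets; orange points were called, the black bar is the list median, and the vertical spread has no meaning. Lipid genes lie mostly above 0 (median 0.62) and interferon genes mostly below 0 (median -0.66), while the 36 mitosis genes are spread on both sides (median 0.07).

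Lists of progenitor states carried no interaction call by edgeR, and the medians of the early and the committed state had opposite signs. Of 24 genes that mark Dpp4-type interstitial progenitors, an early multipotent state, 22 had an estimate below 0, against 7776 of all 16842. Their median was -0.31. At an unadjusted p below 0.05, 9 were negative (37.5%, against 8.13% of all tested genes) and none positive. DESeq2 called 3 and limma-voom 1. Il33, an alarmin cytokine, was at 58.6, 64.05, 48.1 and 48.3 CPM in WT SAT and 94.8, 104, 95.5 and 109.9 in KO SAT, with VAT at 59.3 to 62.2 CPM in wild type and 57.2 to 76.01 CPM in knockout (interaction -0.69 ± 0.14, adjusted p = 0.0512). Sema3c, a secreted semaphorin, had an interaction of -0.72 ± 0.17 (adjusted p = 0.0785), and Dpp4 itself one of -0.61 ± 0.22 (adjusted p = 0.198). Of 24 genes of Icam1-type committed preadipocytes, 11 were positive and 1 negative at an unadjusted p below 0.05, with a median of 0.38. These were 45.8% and 4.17%, against 7.85% and 8.13% of all tested genes. DESeq2 called 6 positive and 1 negative, and limma-voom none. Of those 24 genes, 5 are also on the lipid list. Agt, the angiotensinogen gene, fell in SAT (-0.83, adjusted p = 0.00452) and was at 287 to 349 and 274 to 421 CPM in WT and KO VAT (interaction 0.96 ± 0.22, adjusted p = 0.0764).

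Nuclear-encoded genes of oxidative phosphorylation, the respiratory chain of mitochondria, had small interaction estimates. Of 33 tested, 32 estimates were above 0 with a median of 0.28, against 9066 above 0 of all 16842. At an unadjusted p below 0.05, 12 were positive (36.4%, against 7.85% of all tested genes) and none negative. No member was called in either depot or in the interaction by edgeR or limma-voom, and DESeq2 called 1, lower in KO SAT. At an unadjusted p below 0.05, 13 were lower in KO SAT and 2 higher in KO VAT. With library totals in place of composition-scaled totals the median interaction of all tested genes moved from 0.03 to 0.08. The 22 tested genes of cholesterol synthesis had a median of 0.25, with 7 positive (31.8%) and none negative at an unadjusted p below 0.05. They had no call by edgeR or limma-voom, and 3 calls by DESeq2.

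Stress-related genes were called lower in the knockout of both depots. Of 20 glucocorticoid response genes, 12 were lower in KO SAT and 6 in KO VAT, against 410 and 212 of all 16842. None was higher by edgeR or limma-voom, and 1 was higher in KO SAT by DESeq2. The interaction was called for none by any of the 3 tools. At an unadjusted p below 0.05, 3 were positive and 1 negative (15% and 5%, against 7.85% and 8.13% of all tested genes). Tsc22d3, the leucine zipper protein GILZ induced by glucocorticoids, was at 305, 286, 546 and 364 CPM in WT SAT and 154, 149, 164 and 100.1 CPM in KO SAT. VAT libraries held 295, 288, 388 and 369 CPM (wild type) and 199, 198, 198 and 157 CPM (knockout) (interaction 0.57 ± 0.26, adjusted p = 0.304). Of 25 heat shock and dissociation stress genes, 12 were lower in KO SAT and 3 in KO VAT. There were 5 positive interactions (20%) at an unadjusted p below 0.05 and none called by any of the 3 tools. Among pericyte and smooth muscle markers the summed level was 3281 to 5475 CPM in wild-type and 2694 to 3649 CPM in knockout SAT, against 6525 to 7163 CPM in wild-type and 6143 to 8030.1 CPM in knockout VAT. Of those 16 markers 15 had an interaction above 0, against 9066 of all 16842, and none was called by edgeR or limma-voom. DESeq2 called 1. At an unadjusted p below 0.05, 7 were positive (43.8%, against 7.85% of all tested genes).

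Chromosome 15, which carries Nr4a1, held 6 of the 45 called genes (13.3%), against 660 of the 16842 tested (3.92%). Ppp1r1a lies 2.28 Mb from Nr4a1 and Pnpla3 17.1 Mb. The other members, Ankrd46, Matn2, Laptm4b and Cmbl, lie 64.8 to 69.7 Mb away. Cmbl, a hydrolase, was at 36.4, 33.3, 40.9 and 34.1 CPM in WT SAT and 22.4, 14.8, 20.9 and 17.5 CPM in KO SAT, and overlapped in VAT (interaction 0.93 ± 0.19). The part of DNA linked to the targeted allele in these calls was not tested.

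The NBRE, AAAGGTCA, was looked for on both strands of the same RefSeq promoter windows. Windows were found for 27 of the 45 called genes, and 0 of them held it, against 143 of 11626 tested genes with a window (1.23%). No match says only that these letters are not in this window.

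The calls were sensitive to single libraries. With 1 library left out, from 7 (without KO SAT replicate 4) to 149 genes (without KO VAT replicate 3) were called in the interaction. The number moved by more than 1.5 times for every library except WT SAT replicate 2, WT SAT replicate 3 and WT VAT replicate 2. Without KO VAT replicate 4, 17 genes were called, 15 of them among the 45, with 2 members of the lipid list and 3 of the interferon list. None of the 45 genes changed direction in any of the 26 alternatives, and 6 were called in all of them: Adamts19, Ifit2, Lgals12, Ppp1r1a, Rgcc and Stac2.

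**Figure D5:**
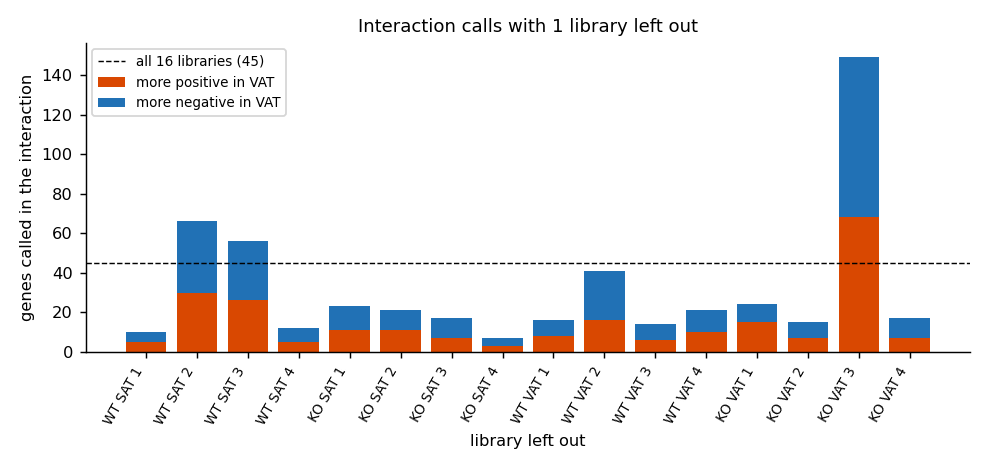
Number of genes called in the interaction (y axis, stacked by direction) when the library on the x axis was left out, with the count over all 16 libraries, 45, as a dashed line. The lowest bar is KO SAT 4 at 7 genes and the highest KO VAT 3 at 149.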

How the data were processed

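Total RNA of adipose progenitors was sequenced as single reads on a NextSeq 500 from libraries that do not mark strand, per the labels' protocols, so overlapping genes on opposite strands cannot be separated. STAR, FastQC, featureCounts and DESeq with build mm10 are named in the submitters' processing notes, without versions. The authors deposited whole-number read counts per gene for 16 libraries, which were used, and a normalized table, which was not. Gene positions came from GENCODE vM21 (GRCm38). Of 38720 entries 27 had names turned into dates and 1328 matched no annotated gene.

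The counts were fitted in edgeR 4.0.16 (R 4.3.3) with filterByExpr, TMM scaling, 1 term per group and the quasi-likelihood test, and p-values were adjusted by Benjamini-Hochberg over all 16842 genes. Calls were made at an adjusted p below 0.05. SE is the absolute log2 change divided by the square root of F. The script was tested on simulated data. The alternatives used RLE scaling, library totals, DESeq2 1.42.0, limma-voom (limma 3.58.1), robust estimation, other low-count filters, blocks, single depots and each library left out. Leaving out WT SAT replicate 3 and KO VAT replicate 4 together, the libraries farthest from the mean of the rest of their group (root mean square of log2(CPM + 1) over tested genes 0.402 and 0.295, others at most 0.229), was chosen after seeing the data, as was the ISRE search.

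Genes and lists were chosen with earlier results of these data known. The genes named are Nr4a1, Nr4a2 and Nr4a3; the 15 largest called interactions in each direction with a mean of at least 5 CPM, the 10 with the smallest p, those called oppositely in the depots, up to 5 members a list with the smallest p, and the 10 narrowest intervals among genes changed over 2-fold in both depots. Others were named after their values were seen, among them the called genes below 5 CPM, and some genes that the rule names are not reported here. Equal replicate numbers were not treated as pairs: 4 of 24 correlations between the deviations of same-numbered libraries of different groups exceeded 0.1 (range -0.16 to 0.18). Between the depots of one genotype this held for 3 of 4 wild-type pairs (-0.04 to 0.14) and 0 of 4 knockout pairs (-0.04 to 0.05).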

Additional observations from a re-analysis of the deposited data

Results flagged for a closer look

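The knockout effect differed between the depots, by the interaction test in edgeR's quasi-likelihood fit, for 45 genes. For the 8 with the smallest p the log2 difference, VAT minus SAT, was -1.94 for Adamts19, -0.91 for Ifit2, -1.48 for Stac2, -4.74 for Gabra2 (1 count in KO VAT, so the size depends on the handling of low counts), 1.33 for Rgcc, 1.70 for Lgals12, 1.40 for Pnpla3 and 1.52 for Ppp1r1a.

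Single libraries stood apart from the other 3 of their group in 11 of the 180 combinations of called gene and group examined, where chance alone gives about 1 in 20. In KO VAT replicate 3 these were Trim30a at 22.1 CPM (others 15.6 to 16.5), Kdr at 28.4 CPM (others 17.7 to 18.7), Asb10 at 2.48 CPM (others 3.51 to 3.58) and Gabra2 at 0.0218 CPM from 1 count (others 0). In KO VAT replicate 4 they were Arntl at 13.9 CPM (others 18.7 to 19.1) and Alx4 at 8.44 CPM (others 11.9 for each). In WT VAT replicate 2 Sp100 was at 65.3 CPM (others 70.3 to 71.0) and Kdr at 28.5 CPM (others 38.7 to 39.8). Gmpr was at 5.27 CPM in WT VAT replicate 4 (others 4.38 to 4.47), Reep6 at 14.9 CPM in KO SAT replicate 2 (others 28.0 to 29.2) and Slc25a10 at 15.5 CPM in WT SAT replicate 2 (others 21.9 to 23.1).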

How the results depend on the processing

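With 4 libraries a group, the 95% interval of the interaction lay within a 2-fold difference for 66.8% of genes, and for the others it reached or lay beyond that size. None of the 45 called genes changed direction in the alternatives. RLE scaling (48 calls), limma-voom (38), robust estimation (45), no low-count filter (45, of which 38 shared) and a mean of at least 1 CPM (46) gave similar counts. Library totals gave 29 calls (10 negative). DESeq2 called 527 (243 positive and 284 negative, all 45 among them), with 1665 knockout effects in SAT, 1229 in VAT and 15 opposite in direction. Opposite calls numbered 5 by limma-voom and 5 at a mean of at least 1 CPM. With only SAT libraries fitted, 509 knockout effects were called in SAT. Without WT SAT replicate 3 and KO VAT replicate 4 there were 37 calls (24 shared), 13 positive, and 7 opposite. With each library left out in turn, calls ranged from 7 to 149 (positive 3 to 68, negative 4 to 81), knockout effects from 469 to 1158 in SAT and 412 to 1216 in VAT, and opposite calls from 0 to 10. The cause of these shifts was not tested.

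The labels do not say whether same-numbered libraries are paired. A replicate block with the number shared by all groups left 14 calls (6 positive, 8 negative, 0 opposite), and a replicate block within genotype left 11 (5 positive, 6 negative). A library correlated best with its own number in 17 of 48 comparisons with another group, where equal chances give 12.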
